A study of Mus musculus with 59 samples.

Results

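Described here are 10 genes that are known from the outer layer of the early mouse embryo: the simple keratins Krt7, Krt8, Krt18 and Krt19 and the transcription factors Gata2, Gata3, Tfap2c, Cdx2, Elf5 and Tead4. They were taken by name from 11807 genes that the array annotation could name, through 16 probe sets, and each was read from its brightest probe set over all arrays. All 10 were on the array and none was filtered out. Their expression was followed over 59 mouse pluripotent lines, 1 array per line, together with the question of whether the keratins moved with Gata2 and Tfap2c from clone to clone.

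The lines comprised 4 embryonic stem cell (ESC) clones labelled KH2 ESC, targeted, 48 clones of induced pluripotent stem cells (iPSC), 1 further iPSC line and 6 subclones labelled NT-ESC, whose origin is a cloned blastocyst. In the study's design, the iPSC came from somatic tissue of chimeras made from ESC with an inducible cassette for myc, Klf4, Oct4 and Sox2, and the series calls its ESC and iPSC genetically matched. The origin labels name chimera 1 and chimera 2 and also mouse 1 and mouse 2, which they do not call chimeras. By origin label there were 6 clones from MEFs of chimera 1. These are mouse embryonic fibroblasts, HSCs and GMPs are taken as blood stem cells and granulocyte-macrophage progenitors, and PFs and TTFs, which the labels do not spell out, are counted here as fibroblasts. Mouse 1 gave 4 clones from HSCs, 4 from GMPs, 3 from granulocytes and 2 from PFs, and mouse 2 gave 4, 4, 3 and 3. Chimera 2 gave 3 clones each from HSCs, GMPs and granulocytes and 6 from TTFs. The further iPSC line, Adeno-2, labelled Adeno-iPSC, has fetal liver as its origin, and the NT-ESC were 3 subclones from nuclei of Adeno-2 (NT-4, NT-5, NT-6), 1 of iPSC-7 (NT-7, from an HSC-derived clone of mouse 1) and 2 of iPSC-15 (NT-8, NT-9, from a granulocyte-derived clone of mouse 1). The labels give separate clones but no repeat cultures, so each test measures the spread between clones, and clones of 1 animal, or subclones of 1 donor line, share their source. The sources used here do not give the strain, age or sex of the animals. All cells grew with 15% FBS and LIF on irradiated MEFs, which were removed by 45 minutes of preplating. Expression is given as the deposited log2 value, on which a difference of 1 is a 2-fold change and 0 lies near the mean of an array.

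The trophectoderm is the first epithelium of the mouse embryo and later forms the trophoblast of the placenta. Tead4, the DNA-binding partner of YAP, acts upstream of Cdx2 and Gata3 there, and Elf5 holds trophoblast stem cells in their state. Tfap2c (AP-2 gamma) and Gata2 are trophoblast regulators, and Tfap2c is also made in pluripotent and germ cells. Krt8 and Krt18 pair to form the first keratin filaments, which Krt7 and Krt19 join, and they occur in extraembryonic endoderm and in simple epithelia of organs as well as in trophoblast.

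Because Krt8 and Krt18 moved together from clone to clone and Krt7 did so only in part, the 250 bases before the annotated start of these 3 genes are shown, from RefSeq on build GRCm38.p6. They lie at chr15:101412153-101412402 on the plus strand for Krt7, chr15:102004343-102004592 on the minus strand for Krt8 and chr15:102027966-102028215 on the plus strand for Krt18, so Krt8 and Krt18 point away from each other. Capitals mark matches, on either strand, to a GATA motif (AGATAA or AGATAG, or the same with T as its first letter) or to the AP-2 motif GCCNNNGGC.
Krt7: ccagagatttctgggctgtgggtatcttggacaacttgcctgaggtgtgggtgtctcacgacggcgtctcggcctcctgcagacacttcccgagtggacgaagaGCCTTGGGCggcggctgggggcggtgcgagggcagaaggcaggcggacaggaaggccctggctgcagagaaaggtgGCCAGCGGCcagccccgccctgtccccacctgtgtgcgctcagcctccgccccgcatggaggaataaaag
Krt8: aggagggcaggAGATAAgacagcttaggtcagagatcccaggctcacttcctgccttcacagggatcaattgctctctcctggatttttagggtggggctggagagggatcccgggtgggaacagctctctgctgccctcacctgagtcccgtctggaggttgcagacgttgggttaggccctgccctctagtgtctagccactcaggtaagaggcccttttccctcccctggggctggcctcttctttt
Krt18: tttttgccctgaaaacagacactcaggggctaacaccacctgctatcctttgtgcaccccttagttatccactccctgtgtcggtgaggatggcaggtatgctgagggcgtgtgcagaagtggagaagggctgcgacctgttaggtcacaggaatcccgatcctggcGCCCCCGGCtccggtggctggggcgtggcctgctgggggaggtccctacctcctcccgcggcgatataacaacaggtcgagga
Krt7 had 2 matches to the AP-2 motif, Krt18 had 1, and Krt8 had 1 match to the GATA motif and none to AP-2. Of 32851 promoters of this length in the table, 26.5% held the GATA motif and 13.7% the AP-2 motif. The TEAD motif GGAATG, present in 12.6% of promoters, had no match in these 3 windows. A match is a run of letters and does not show that a factor was bound. Entries were found for 7 of the 10 genes, also for Gata2, Gata3, Cdx2 and Elf5, and not for Krt19, Tfap2c and Tead4.

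Several lines stood apart, and results that rest on them are given with and without them. The pluripotency factor Pou5f1 was 0.28 in iPSC-32, a PF-derived clone of mouse 2, against a median of 4.66 over the 52 ESC and iPSC clones, while Nanog was 5.17 there. NT-7, NT-8 and NT-9 had less spread values (SD over genes of 2.35 to 2.47, against 2.54 to 2.64 in ESC and iPSC). In these 3 arrays 20.0% of all genes lay above every ESC and iPSC clone and 14.2% below. Pou5f1, Sox2 and Nanog were otherwise high in ESC (means 4.84, 4.39 and 5.09, n = 4), and the mean of 11 haematopoietic genes was -2.30 to -2.13 in the blood-derived clones and -2.36 to -2.19 in ESC. In bulk RNA, fewer cells of a type and less RNA per cell cannot be told apart, and the number of feeder cells left after preplating is not known.

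**Figure D1:**
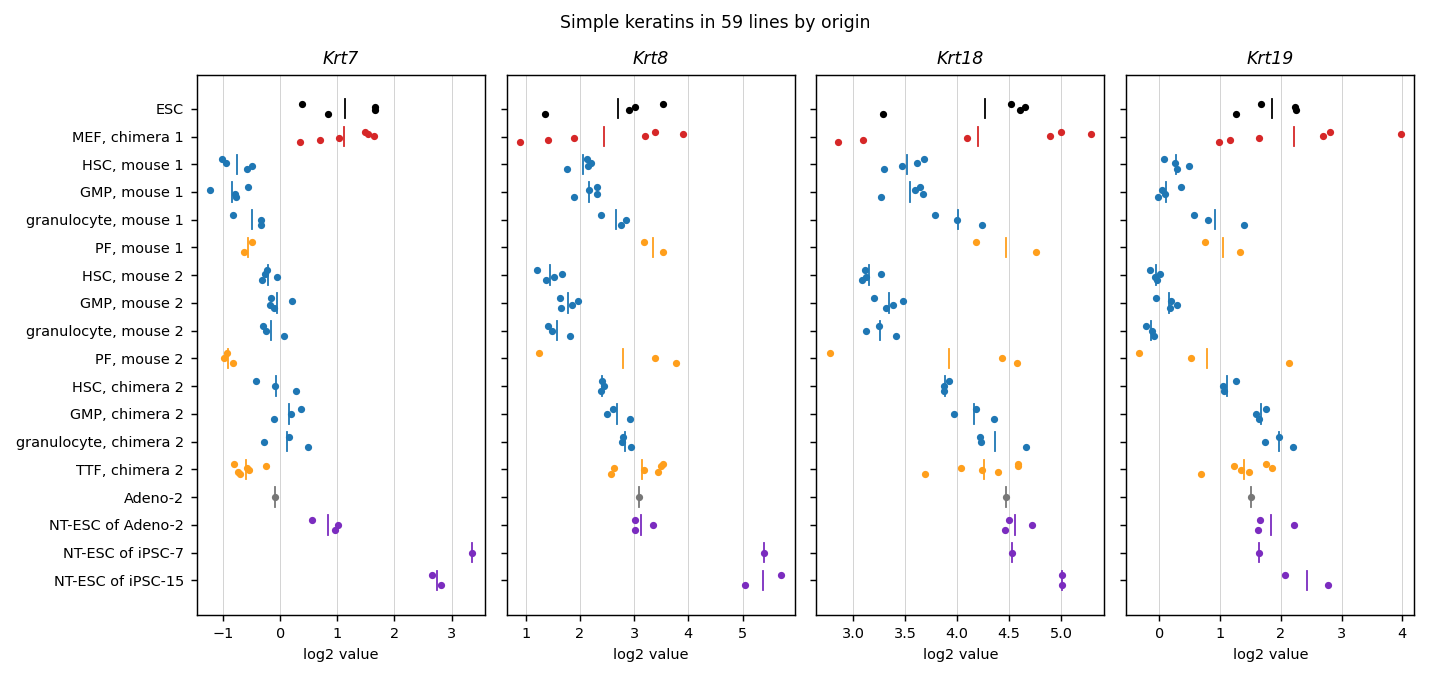
Log2 values (x axes) of Krt7, Krt8, Krt18 and Krt19 in 59 lines, by origin (rows); each point is 1 line and each vertical bar the mean of its group. Black is ESC, red MEF-derived iPSC, orange PF- or TTF-derived, blue blood-derived, grey Adeno-2 and purple NT-ESC; Krt8 spreads from 0.89 to 3.90 in the 6 MEF-derived clones, and NT-7, NT-8 and NT-9 lie at 5.04 or above.

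Krt8 and Krt18 were present at clearly different amounts in clones of the same origin. In the 6 MEF-derived clones Krt8 was 3.38, 3.90 and 3.20 in iPSC-1, iPSC-2 and iPSC-3 and 1.88, 1.41 and 0.89 in iPSC-4, iPSC-5 and iPSC-6. Its partner Krt18 was 5.00, 5.29 and 4.89 in the first 3 of these clones and 4.10, 3.09 and 2.85 in the others. Every one of the first 3 clones lay above every one of the others for both genes, and the clones from 1 chimera covered nearly the whole range of the 48 iPSC (0.89 to 3.90 for Krt8, 2.77 to 5.29 for Krt18). Krt19, another simple keratin, split the same 6 clones (2.81, 3.98 and 2.70 against 1.65, 1.16 and 0.98), as did Krt7 (1.48, 1.53 and 1.64 against 1.04, 0.70 and 0.35) and Gata2 (1.11, 0.74 and 1.20 against 0.06, -0.05 and -0.24). Tfap2c did not split them (4.06, 4.29 and 4.09 against 3.51, 3.91 and 4.09), nor did Cdx2, which ranged from -1.91 to -0.86. The split was chosen from the Krt8 values themselves, and the share of all genes that followed it was not counted. The mean of 15 fibroblast and feeder genes moved with the keratins in these clones (1.47, 1.58 and 1.34 against 0.84, 0.65 and 0.32). Its part in the split of these 6 clones was not tested.

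The 4 ESC clones differed among themselves in a like way. Krt8 was 3.53, 3.01, 2.90 and 1.35 and Krt18 4.52, 4.66, 4.61 and 3.29 in ESC-1 to ESC-4, so ESC-4 was lowest for both. Krt7 (0.38, 1.65, 1.65 and 0.83) and Gata2 (0.10, 1.92, 1.86 and 0.33) were instead high in ESC-2 and ESC-3 and low in ESC-1 and ESC-4. Tfap2c varied little (4.49, 4.26, 4.37 and 4.29). The fibroblast and feeder mean was 1.81, 0.93, 0.89 and 0.41, highest in ESC-1 and lowest in ESC-4 as Krt8 was.

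Over the ESC and the 13 iPSC origin groups the order of Krt8 ran from HSC-derived clones of mouse 2 (1.44 ± 0.20, SD, n = 4) to PF-derived clones of mouse 1 (3.36 ± 0.24, n = 2), with ESC at 2.70 ± 0.94 (n = 4). The 3 blood-derived groups of mouse 2 were the lowest (up to 1.78 ± 0.16, n = 4, from GMPs), and in 11 of 13 pairs of neighbours among the 14 ESC and iPSC groups the gap was under the larger SD of the pair. Krt18 had the same groups at its ends (3.15 ± 0.08 and 4.47 ± 0.41), with 12 of 13 such pairs. Among these groups Krt19 was lowest in granulocyte-derived clones of mouse 2 (-0.15 ± 0.07, n = 3) and highest in MEF-derived clones (2.21 ± 1.15, n = 6). Krt7 had another order: ESC (1.13 ± 0.63) and MEF-derived clones (1.12 ± 0.52) stood above all other iPSC groups, of which PF-derived clones of mouse 2 were lowest (-0.91 ± 0.08, n = 3). In the Adeno-2 line Krt7, Krt8, Krt18 and Krt19 were -0.09, 3.09, 4.47 and 1.51. The NT-ESC subclones, some of them above all these groups, are described at the end.

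Among the factors, Tfap2c was even: group means ran from 3.71 ± 0.17 (TTF-derived, n = 6) to 4.35 ± 0.10 (ESC) outside the NT-ESC. Gata2 stayed between -0.92 and 0.21 in the 42 iPSC clones of other origin than MEFs, and reached 1.20 in MEF-derived clones and 1.92 in ESC. Cdx2, the trophectoderm homeobox factor, had a median of -1.30 over ESC and iPSC, and its highest value was 0.22 in iPSC-34. Gata3 had a median of -3.01 and Elf5 one of -3.16. The deposited values carry no detection call, so whether Gata3 and Elf5 lay above background is not known. Tead4 ranged from -1.69 to -0.55. Of a further 15 trophoblast genes on a list of 17, the mean was -0.95 to -0.86 in ESC and -1.25 to -0.67 in iPSC outside the MEF-derived group.

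**Figure D2:**
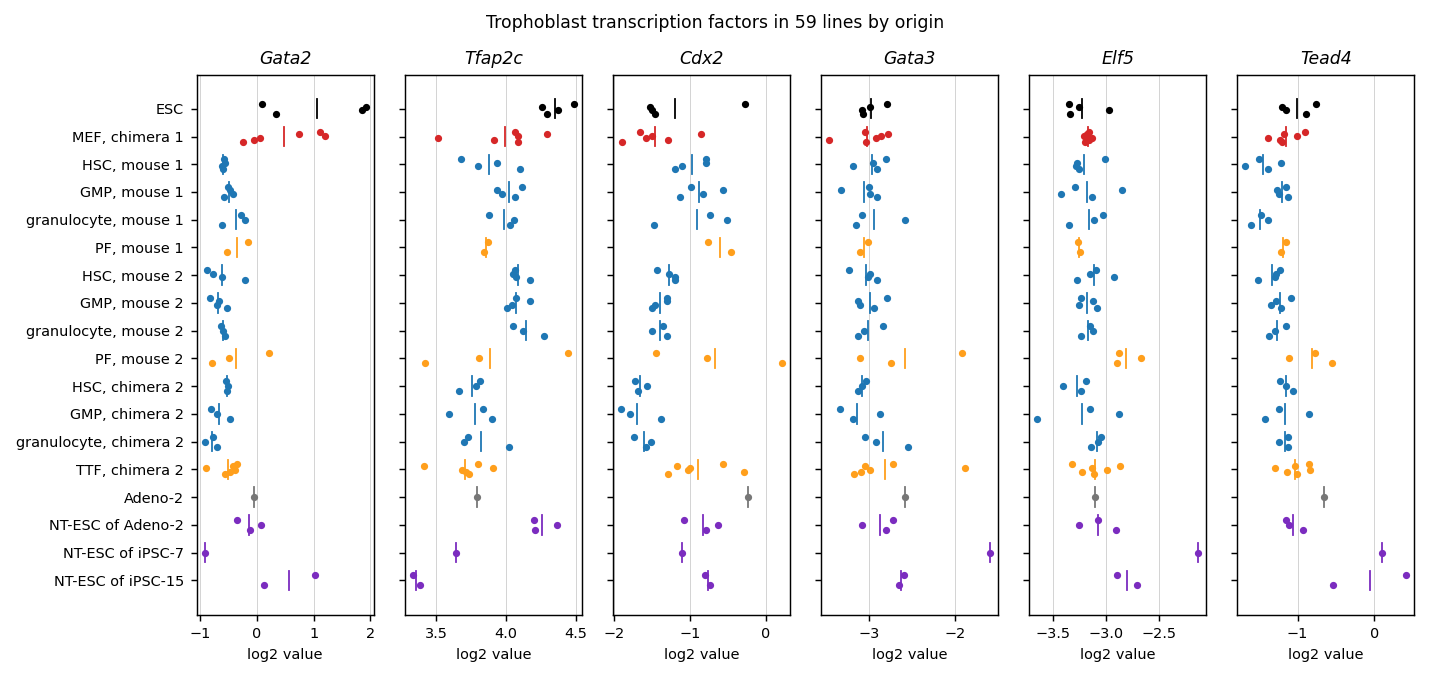
Log2 values (x axes) of Gata2, Tfap2c, Cdx2, Gata3, Elf5 and Tead4 in 59 lines by origin (rows); points are lines, vertical bars group means, colours as for the keratins. Gata2 exceeds 1 in ESC-2 and ESC-3, in iPSC-1 and iPSC-3 and in NT-8; iPSC-46 and iPSC-32 stand out for Gata3 at -1.88 and -1.92.

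Against the 4 ESC, the 48 iPSC were lower for Gata2, Krt7 and Tfap2c. Gata2 was 0.10 to 1.92 in ESC (median 1.10) and -0.92 to 1.20 in iPSC, with a difference of -1.47 (SE 0.25, limma adjusted p = 5.93e-04). Krt7 fell by 1.33 (SE 0.33, adjusted p = 0.0156) and Tfap2c, at 3.41 to 4.44 in iPSC, by 0.43 (SE 0.11, adjusted p = 0.0192). Groups overlapped for all 3 genes. These were 3 of 10 members, beside 4.94% of all 11807 genes called in this comparison (2.52% higher and 2.41% lower). Krt19 (-0.93, adjusted p = 0.228), Krt18 (-0.42, 0.428), Krt8 (-0.30, 0.678) and Tead4 (-0.19, 0.291) did not pass, and Cdx2 (-0.00), Gata3 (0.02) and Elf5 (0.08) lay at or near 0. Of 17 genes of simple epithelium and cell junctions, 6 fell and none rose (median -0.44, against 0.03 over all genes and -0.36 over the members), among them the claudin Cldn4 (-1.12, adjusted p = 0.0104), the desmosomal cadherin Dsg2 (-0.44, 0.0151) and desmoplakin, Dsp (-0.99, 0.0274). Of the 15 further trophoblast genes 1 fell, Plet1 (-0.67, adjusted p = 0.0269), and none rose.

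The calls for Gata2, Krt7 and Tfap2c rested on few ESC arrays. Without ESC-2 or without ESC-3 no member passed, and 0.0508% and 0.0423% of all genes did, with adjusted p of up to 0.0613 for Gata2, 0.177 for Krt7 and 0.138 for Tfap2c. With the animal as a random block 0 members and 0.0% of all genes were called, and the members' differences were -1.38, -1.20 and -0.42. In a fit that gave every origin group the same weight, Krt19 passed too (-0.98, adjusted p = 0.00858), as it did without the MEF-derived clones (-1.11, adjusted p = 0.0319). The second probe set of Gata2 gave -0.67 (adjusted p = 0.0112), and that of Tead4, unlike the one used, passed (-0.60, 0.0452).

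**Figure D3:**
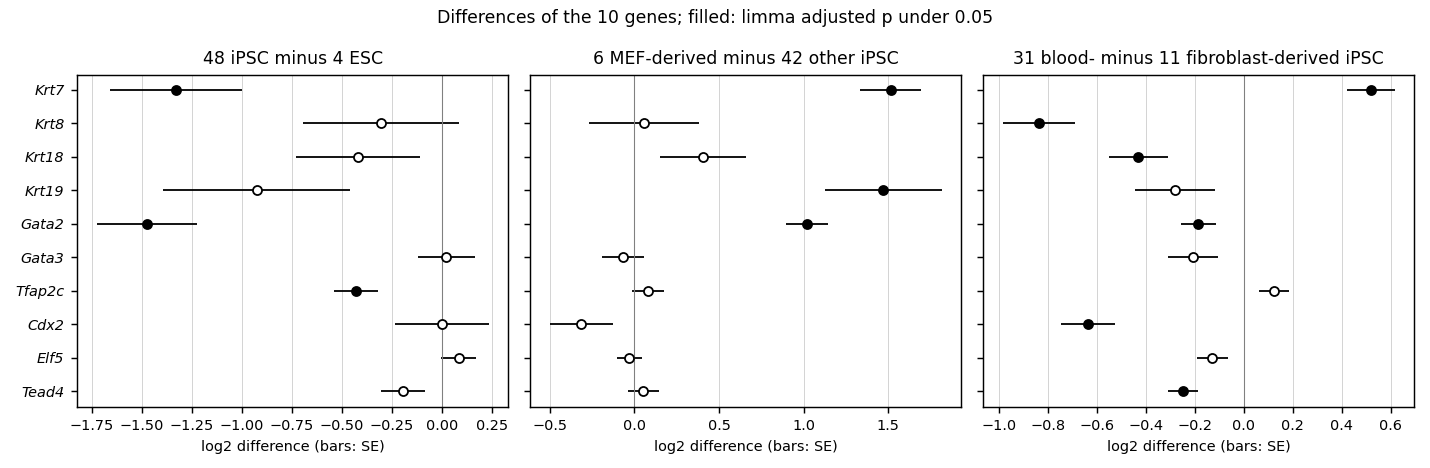
Log2 differences of the 10 genes (x axes; points with SE bars) in 3 comparisons: iPSC minus ESC, MEF-derived minus other iPSC, and blood-derived minus fibroblast-derived iPSC. Filled points passed limma at an adjusted p under 0.05; Krt7 is lower in iPSC than in ESC (-1.33) and higher in MEF-derived than in other iPSC (1.51).

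Between MEF-derived clones and ESC no member passed. Limma called 0 of 11807 genes (0.0%) here, and 997 (8.44%) had an unadjusted p under 0.05. The smallest p among members was that of Tfap2c (-0.36, adjusted p = 0.473). Krt7 differed by -0.00 with an SE of 0.31 and Krt8 by -0.26 with an SE of 0.61, so sizeable differences were within the error of these 10 arrays. This comparison uses the same ESC as the one before it.

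Against the other 42 iPSC, however, MEF-derived clones were higher for 3 of 10 members, beside 37.7% of all genes called (18.9% higher and 18.8% lower). Krt7 was 0.35 to 1.64 (median 1.26) in MEF-derived clones and -1.23 to 0.48 (median -0.34) in the others, a difference of 1.51 (SE 0.18, adjusted p = 2.81e-09). Gata2 was higher by 1.02 (SE 0.12, adjusted p = 5.37e-09) and Krt19 by 1.47 (SE 0.34, adjusted p = 5.26e-04). The second probe set of Gata2 gave a smaller difference that did not pass (0.27, adjusted p = 0.0508), and that of Tead4 one that did (0.57, 7.76e-04), unlike the probe set used (0.05, 0.692). All 3 genes overlapped between the groups, and Krt8 (0.06, SE 0.33, adjusted p = 0.916) and Krt18 (0.40, SE 0.25, adjusted p = 0.212) did not pass. Simple epithelium and junction genes had 7 of 17 higher and none lower, led by Cldn4 (0.93, adjusted p = 2.56e-05), the desmosome-associated Perp (0.70, 1.43e-04) and Cldn7 (1.08, 3.56e-04). Further trophoblast genes had 4 of 15 higher, with the epithelial ETS factor Elf3 (1.07, adjusted p = 4.64e-06), the X-linked homeobox gene Esx1 (0.46, 7.06e-05) and Plet1 (0.62, 1.63e-04) in front, and none lower. The median of this list was -0.07, against -0.02 over all genes. Fibroblast and feeder genes had 5 of 15 lower and 1 higher (median -0.53) and pluripotency genes 4 of 14 higher and none lower (median 0.22), and their part in the keratin and Gata2 values was not tested. All MEF-derived clones came from chimera 1, which gave no other clones, so cell type and animal cannot be told apart.

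Among the 42 clones of mouse 1, mouse 2 and chimera 2, blood-derived clones (31, from HSCs, GMPs and granulocytes) differed from fibroblast-derived clones (11, from PFs and TTFs) at 6 members, beside 49.7% of all genes called (28.1% higher and 21.6% lower). Krt8 was 1.21 to 2.94 (median 2.16) in blood-derived clones and 1.25 to 3.77 (median 3.39) in fibroblast-derived clones, lower by 0.84 on the log2 scale after adjustment for animal (-0.84, SE 0.15, adjusted p = 1.07e-05). Cdx2 fell by 0.64 (SE 0.11, adjusted p = 6.69e-06), Krt18 by 0.43 (SE 0.12, adjusted p = 0.00299) and Tead4 by 0.25 (SE 0.06, adjusted p = 7.28e-04). Krt7 went the other way and was higher in blood-derived clones by 0.52 (SE 0.10, adjusted p = 2.95e-05). Gata2 fell by 0.19 (adjusted p = 0.0305), a call that was lost without iPSC-32 (-0.11, adjusted p = 0.154). The groups overlapped for all 6 genes. The second probe set of Tead4 did not follow the first (r = 0.23 over the arrays), and with the mean of both its difference was -0.03 (adjusted p = 0.695). The second probe set of Cdx2 gave a smaller fall, of -0.19 (adjusted p = 0.00284).

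Fibroblast and feeder genes moved with this comparison: 14 of 15 fell and none rose, and their mean was 2.09, 2.60 and 2.05 in the fibroblast-derived clones of mouse 1, mouse 2 and chimera 2 and 1.77, 1.21 and 1.08 in the blood-derived clones. The 3 with the smallest p were the mesenchymal factor Twist2 (-1.62, adjusted p = 7.17e-13), the matrix proteoglycan Dcn (-1.63, 2.91e-11) and Prrx1 (-1.24, 6.68e-11). With this mean as a covariate 15.6% of all genes and 1 member passed, Krt8 (-1.04, adjusted p = 0.0105), while Krt7 had a difference of -0.012 (adjusted p = 0.967), Krt18 one of -0.63 (0.0523) and Cdx2 one of -0.43 (0.148). In the fit without this covariate 28.1% of all genes were higher and 21.6% lower. There further trophoblast genes had 4 of 15 higher and 4 lower, simple epithelium and junction genes 4 of 17 higher and 5 lower, and pluripotency genes 8 of 14 higher and 1 lower. Primitive endoderm genes had 5 of 13 lower and 2 higher, and genes of the TEAD and YAP pathway 6 of 12 lower and 2 higher, led by the YAP target Ccn1 (-0.35, adjusted p = 1.13e-08), the kinase gene Lats2 (-0.95, 4.42e-08) and the YAP target Ankrd1 (-1.02, 2.24e-06).

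The difference for Krt7 was not the same in each animal. Fibroblast-derived clones came from PFs in mouse 1 and mouse 2 and from TTFs in chimera 2. For chimera 2, animal and fibroblast source therefore cannot be told apart in these differences. Blood-derived clones of mouse 1 ranged from -1.23 to -0.33 (median -0.77, n = 11) and the 2 PF-derived clones were -0.63 and -0.49, a difference of -0.16 (SE 0.18, adjusted p = 0.588). In mouse 2 blood-derived clones ranged from -0.32 to 0.20 and the 3 PF-derived clones from -0.98 to -0.82, with no overlap (as for 20.0% of all genes, 11.8% higher and 8.22% lower in blood-derived clones) and a difference of 0.76 (SE 0.15, adjusted p = 6.8e-05). In chimera 2 the difference was 0.67 (SE 0.12, adjusted p = 2.4e-05), with overlap between blood-derived (-0.42 to 0.48) and TTF-derived clones (-0.81 to -0.24). A test of the interaction gave an adjusted p of 0.00559 for Krt7, the only member among 10 to pass, beside 20.7% of all genes. Without iPSC-19, 1 of the 2 PF-derived clones of mouse 1, its adjusted p was 0.0757.

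For Krt8 the difference had 1 sign in all animals: -1.09, -1.20 and -0.50 in mouse 1, mouse 2 and chimera 2 (adjusted p = 0.0180, 3.49e-04 and 0.0680). Krt18 was lower in the blood-derived clones of mouse 1 and mouse 2 (-0.81 and -0.67, adjusted p = 0.0299 and 0.0106), with -0.11 in chimera 2 (0.658). In mouse 2, iPSC-33 and iPSC-34 had 3.39 and 3.77 and the low-Pou5f1 clone iPSC-32 had 1.25, inside the blood-derived range of 1.21 to 1.96. Krt18 (4.43 and 4.58 against 2.77) and Krt19 (0.52 and 2.14 against -0.33) were split in the same way. iPSC-32 had the highest fibroblast and feeder mean of all lines (2.86) together with the lowest Krt18 and Krt19 of all 59, and the highest Tfap2c (4.44) among iPSC. Without iPSC-32 the interaction passed for 5 members, beside 26.8% of all genes: Krt7, Krt8 (adjusted p = 2.70e-04), Krt18 (8.04e-04), Krt19 (0.00367) and Tfap2c (0.0219). Here too, chimera 2 cannot be told apart from its TTF source.

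The keratins differed between animals also among clones of the same kind. In blood-derived clones Krt19 was -0.02 to 1.39 in mouse 1 (median 0.29, n = 11), -0.23 to 0.30 in mouse 2 (median -0.05, n = 11) and 1.04 to 2.20 in chimera 2 (median 1.64, n = 9). No blood-derived clone of mouse 2 reached a clone of chimera 2. The same held for Krt8 (1.21 to 1.96 against 2.39 to 2.94) and Krt18 (3.08 to 3.48 against 3.87 to 4.66). These were 3 of 10 members, beside 10.6% of all genes without overlap between these clones (5.12% lower in mouse 2 and 5.45% higher). The limma test of any difference between animals, with cell type in the model, passed for 6 of 10 members, beside 44.9% of all genes: Krt19 (terms spanning 1.28, adjusted p = 2.55e-07), Krt8 (0.82, 8.58e-05), Krt18 (0.70, 7.72e-05), Cdx2 (0.64, 1.15e-04), Krt7 (0.61, 3.30e-05) and Tfap2c (0.28, 0.00142). After averaging the clones from one animal and tissue, Krt7 did not pass here (0.56, adjusted p = 0.0535), beside 23.4% of all genes called. On the second probe sets Cdx2 (0.09, adjusted p = 0.396) and Tfap2c (0.18, 0.220) did not pass. In the blood-derived clones the mean of simple epithelium and junction genes was 1.50, 1.39 and 1.88 in mouse 1, mouse 2 and chimera 2. The fibroblast and feeder mean had another order there (1.77, 1.21 and 1.08), highest in mouse 1 and lowest in chimera 2, where Krt8, Krt18 and Krt19 were highest. Its part in the differences between animals was not tested.

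Between cell types of origin, 5 members passed (Krt7, Krt8, Krt18, Cdx2 and Tead4), beside 38.0% of all genes. When the clones from one animal and tissue were first averaged, Krt7 (adjusted p = 0.182) and Tead4 (0.0758) lost the call, and 17.4% of all genes passed, and Tead4 lost it also with the mean of its probe sets (0.683). Within blood, granulocyte-derived and HSC-derived clones, the ends of the maturation series, showed 0 called members and 0.0% of genes called, with 390 genes (3.3%) under an unadjusted p of 0.05. Krt19 (0.46), Krt8 (0.40) and Krt18 (0.36) were the largest differences among members, with SE of 0.20, 0.18 and 0.15 and unadjusted p of 0.0264, 0.0376 and 0.0196, each with an adjusted p of 1.00.

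The clone-to-clone spread of the keratins was among the widest on the array. After each origin group was centred on its mean, the SD over the 48 iPSC was 0.61 for Krt8, which ranked 17 of 11807 genes, 0.58 for Krt19 (rank 25) and 0.50 for Krt18 (rank 48). Cdx2 (0.34, rank 346), Gata2 (0.31, rank 495), Krt7 (0.29, rank 578) and Gata3 (0.29, rank 582) also spread, and Tfap2c (0.20), Tead4 (0.16) and Elf5 (0.16) less. Most of the spread of the keratins Krt8, Krt18 and Krt19 came from 9 clones: without the 6 MEF-derived and the 3 PF-derived clones of mouse 2 the SD was 0.25 for Krt8, 0.25 for Krt19, 0.22 for Krt18 and 0.17 for Gata2, which then ranked at the 68.9th percentile of all genes.

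**Figure D4:**
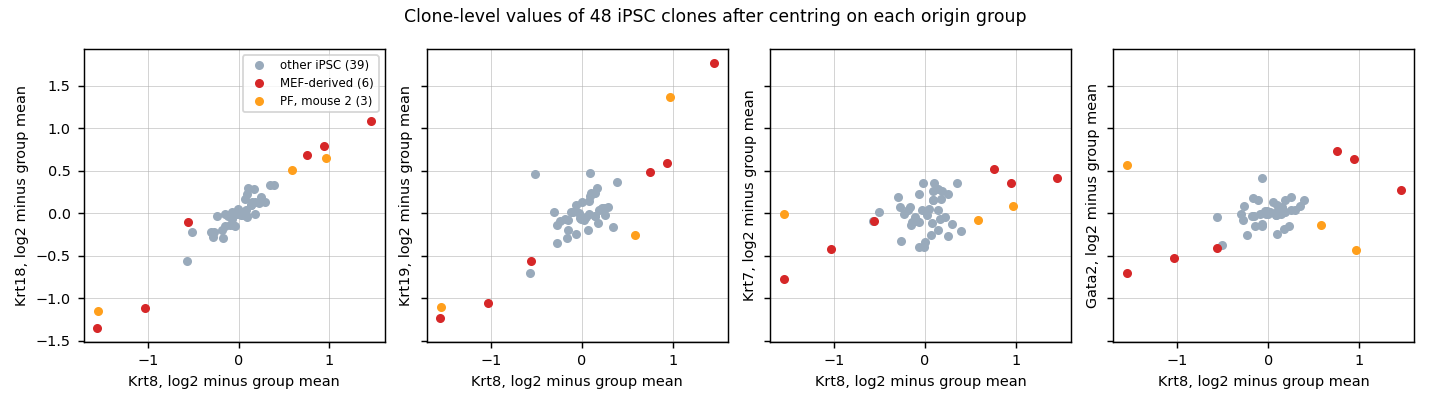
Log2 values of Krt18, Krt19, Krt7 and Gata2 (y axes) against Krt8 (x axes) in 48 iPSC clones, each minus the mean of its origin group. Krt18 follows Krt8 in all clones (r = 0.97) and Krt19 mainly in the MEF-derived (red) and PF-derived mouse 2 clones (orange). Krt7 and Gata2 rise with Krt8 in red but not in orange points.

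Coupling was measured on the centred values of 48 clones for 45 pairs of members, with clones permuted within their origin group and p adjusted over the pairs. Of the 45 pairs 6 passed, all of them between keratins. Krt8 and Krt18 moved together with Pearson's r = 0.97 and Spearman's rho = 0.92 (adjusted p = 4.5e-04 for both, permutation test). The pair held without the 2 clones farthest out in Krt8 (r = 0.95), without the 9 wide-spread clones (r = 0.87, n = 39, adjusted p = 9.0e-04) and in each animal (r = 0.98, 0.85, 0.99 and 0.91 in chimera 1, mouse 1, mouse 2 and chimera 2). Krt19 went with Krt8 (r = 0.85, rho = 0.61, adjusted p = 0.00945 and 0.024) and with Krt18 (r = 0.85, rho = 0.62, 0.00675 and 0.024), but not without the 9 clones (r = 0.39 and 0.58, adjusted p = 0.512 and 0.242). Krt7 with Krt8, Krt18 and Krt19 gave r = 0.53, 0.55 and 0.54 (adjusted p = 0.0443 each) and rho = 0.37, 0.33 and 0.45, which did not pass (adjusted p = 0.129, 0.193 and 0.082). Without the 9 clones these r were 0.14, 0.14 and 0.24. Among the 9, Krt7 spread in the MEF-derived clones (SD 0.52) and hardly in the PF-derived clones of mouse 2 (SD 0.08). Without iPSC-32 alone the r were 0.62, 0.63 and 0.58, so the coupling of Krt7 rested mainly on the MEF-derived clones.

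No pair of Gata2 or Tfap2c with a keratin passed. Krt8 with Gata2 gave r = 0.37 and rho = 0.37 (adjusted p = 0.601 and 0.193, permutation test). This value depended on iPSC-32, the clone with low Pou5f1. Without that clone, and with its group centred anew, r was 0.74 and rho 0.51 (n = 47, adjusted p = 0.0981 and 0.0773, permutation test), still short of the threshold, and Krt18 with Gata2 went from r = 0.37 to 0.69 (adjusted p = 0.125). Without iPSC-32 the pairs that passed again numbered 6, all between keratins. Krt7 with Gata2 gave r = 0.46 and rho = 0.25 (adjusted p = 0.201 and 0.325). By animal, r of Krt8 with Gata2 was 0.90 in chimera 1 (n = 6, exact permutation p = 0.0569), -0.16 in mouse 1 (n = 13), -0.74 in mouse 2 (n = 14) and 0.74 in chimera 2 (n = 15, permutation p = 0.0131, adjusted p = 0.196, and rho = 0.87, adjusted p = 0.0866). In mouse 2 it was -0.11 without iPSC-32, so the negative value rested on that clone. Krt8 with Tfap2c gave r = -0.16 and rho = 0.10 (adjusted p = 0.803 and 0.76), with 0.48, -0.20, -0.85 and -0.17 in chimera 1, mouse 1, mouse 2 and chimera 2 and -0.06 in mouse 2 without iPSC-32. Over all clones without iPSC-32 its sign turned (r = 0.22, adjusted p = 0.663). Gata2 with Tfap2c gave r = 0.43 and rho = 0.34 (adjusted p = 0.360 and 0.176). Krt8 with Cdx2 gave r = 0.58 and rho = 0.46, just short of the threshold (adjusted p = 0.0583 and 0.082).

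Between groups the picture was another. Without centring, which lets differences between origins count, Krt7 and Gata2 gave r = 0.60, Krt8 and Tfap2c r = -0.46 and Krt7 and Krt8 r = 0.08 over the same 48 clones. These are given as a description, since clones of 1 origin share their animal and cell type. Krt7 and Gata2 were both highest in MEF-derived clones, and Krt8 was not.

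Over all 11806 other genes, Krt18 was the gene most like Krt8 across the centred clones, and Krt8 most like Krt18. Next for Krt8 were Clu, a secreted chaperone (r = 0.92), the stress-induced factor Atf3 (0.92), the cornified envelope gene Sprr2a1 (0.88) and the retinol dehydrogenase Rdh10 (0.88), with 0.80, 0.49, 0.50 and 0.62 without the 9 wide-spread clones. Krt19 ranked 13 for Krt8, and Krt7 501. Most like Gata2 were the G-protein subunit Gna11 (0.86), S100a13 (0.84), Hoxb9 (0.76), Rgcc (0.76) and Kdelr1 (0.75), with 0.71, 0.56, 0.33, 0.39 and 0.20 without the 9 wide-spread clones. Most like Tfap2c were Trim25 (0.84), Baz2b (0.82), Nudt4 (0.81), Mtm1 (0.80) and the stem cell factor receptor gene Kit (0.80), with 0.69, 0.80, 0.71, 0.78 and 0.77 without those 9 clones. Among the genes beside Krt8 on the chromosome, Krt18 is the next that codes for protein, and the one after it, Eif4b, gave r = 0.07 with Krt8. Krt79, 2 protein-coding places away on the other side, gave 0.28, and Tns2, beyond Eif4b, 0.61. The other measured genes nearby ranged from -0.42 (Csad) to 0.27 (Krt77).

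Of the 6 NT-ESC subclones 3 had the highest Krt7 and Krt8 of the series. Krt8 was 5.40 in NT-7, 5.72 in NT-8 and 5.04 in NT-9, all above the 52 ESC and iPSC clones (0.89 to 3.90), while NT-4, NT-5 and NT-6 had 3.02, 3.34 and 3.01. Krt7 was 3.35, 2.66 and 2.82 against a highest ESC or iPSC value of 1.65, and 0.57, 1.01 and 0.96 in NT-4, NT-5 and NT-6. Tead4 (0.10, 0.42 and -0.54) was also above all ESC and iPSC clones in NT-7, NT-8 and NT-9, which made 3 of 10 members, beside the 20.0% of all genes. For Tead4 the margin was small in NT-9 (-0.54 against a highest ESC or iPSC value of -0.55). Its second probe set differed in the 6 subclones by -0.36 from ESC, against 0.47 for the one used (adjusted p = 0.270 and 0.336). Krt18 did not keep pace with Krt8 there. Relative to the donor clone, Krt8 was higher by 3.27, 3.32 and 2.64 in NT-7, NT-8 and NT-9 and Krt18 by 0.84, 1.22 and 1.22.

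Relative to donors, Krt7 was higher in 6 of 6 subclones (0.65 to 4.36) and Krt19 in 6 of 6 (0.12 to 2.21). For Krt19 the difference was small in NT-4 and NT-6 (0.14 and 0.12). Subclones of 1 donor line were set against the same array, and the share of all genes higher in 6 of 6 was not counted. In the fit with the donor line as a block, the differences were 2.74 for Krt7 (SE 0.54, limma adjusted p = 0.0610), 1.90 for Krt8 (SE 0.56, 0.0675), 1.18 for Krt19 (SE 0.32, 0.0645) and 0.68 for Krt18 (SE 0.22, 0.0745), and 0 members passed, beside 0.0593% of all genes called (7, of which 0.0169% higher and 0.0423% lower), and 4824 (40.9%) under an unadjusted p of 0.05. Without the Adeno-2 array, where NT-7, NT-8 and NT-9 and their 2 donors carry the comparison, 6 members passed, beside 53.5% of all genes. With NT-7, NT-8, NT-9 and their donors left out, what remains is the 3 subclones of Adeno-2 against that 1 array, which is assumed to vary as the subclones do. There Krt7 differed by 0.93 (adjusted p = 0.0243) and Tfap2c by 0.46 (adjusted p = 0.0389), beside 17.3% of all genes called, a comparison of these subclones with 1 array and not of NT-ESC with donors at large. Tfap2c was higher than in Adeno-2 by 0.41, 0.57 and 0.41 in its 3 subclones, and differed by -0.04, -0.55 and -0.50 in NT-7, NT-8 and NT-9. Against ESC, whose arrays also serve in the comparison with iPSC, 0 members passed (0.00847% of genes called, 1 gene, and 2074, or 17.6%, under an unadjusted p of 0.05), with Krt8 at 1.55 (SE 0.65, adjusted p = 0.275) and Gata2 at -1.08 (SE 0.44, adjusted p = 0.275).

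**Figure D5:**
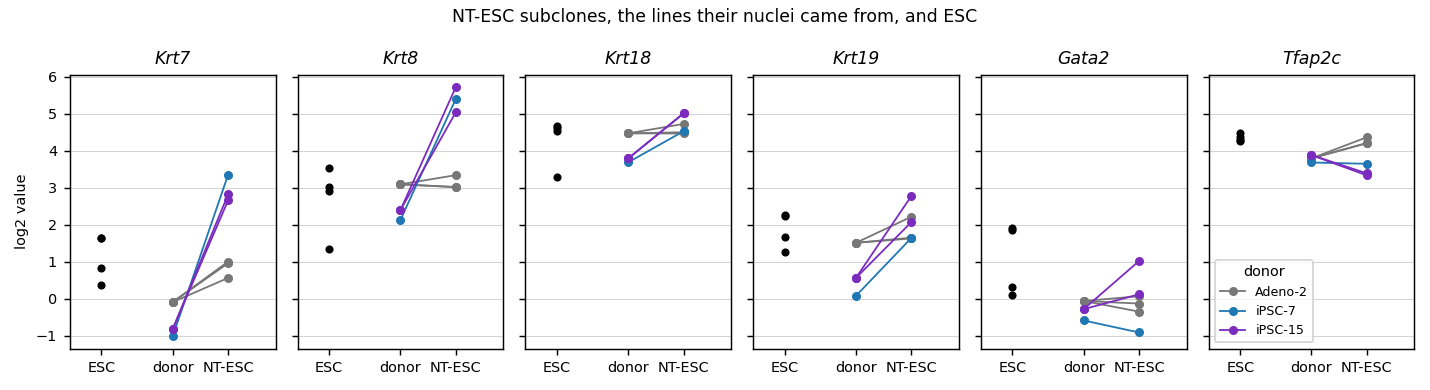
Log2 values of 6 members (y axes) in 4 ESC clones (black), in the 3 donor lines and in the 6 NT-ESC subclones made from them; lines join each subclone to its donor. Krt7 and Krt8 lie 2.64 to 4.36 above the donor in the subclones of iPSC-7 and iPSC-15, and Tfap2c lies above its donor in the subclones of Adeno-2 only.

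Primitive endoderm genes moved with Krt7 and Krt8 in NT-7, NT-8 and NT-9. Of 13 such genes 10 lay above all 52 ESC and iPSC clones in all 3 subclones, and their mean was 1.15, 1.93 and 1.77, against -0.68 to -0.10 in ESC and iPSC and -0.56 to -0.55 in NT-4, NT-5 and NT-6. Sox17, an endoderm transcription factor, was -0.60, 2.37 and 1.96 there and -3.79 to -2.79 in ESC and iPSC, and Gata6 was -0.91, 0.64 and 1.03 against -2.26 to -1.34. Of 15 further trophoblast genes 4 lay above in all 3 (Hand1, Ascl2, Dlx3 and Esx1) and 1, the FGF receptor Fgfr2, below. Over all genes 20.0% lay above and 14.2% below in all 3 subclones, so the trophoblast share above (26.7%) was near that of all genes. Haematopoietic genes had 5 of 11 above and fibroblast and feeder genes 0 of 15. The 5 were low genes, with highest ESC or iPSC values from -2.87 (Mpo) to -0.37 (Runx1). Values of these 3 arrays were less spread, and no share was taken among genes of like level. Cdx2 (-1.10, -0.80 and -0.73) stayed inside the range of ESC and iPSC. Its other probe set, which followed the first at r = 0.17 over the arrays, differed in the 6 subclones by 1.03 from donors (adjusted p = 0.0703) and by 0.81 from ESC (adjusted p = 0.270), against -0.32 and 0.34 for the one used. Of 14 pluripotency genes 1 lay below all 52 clones in all 3 subclones, Nanog (4.56, 4.18 and 4.56, against 4.63 to 5.24). Zfp42 and Dppa3 lay below in 2 of the 3, and Pou5f1 was 3.78 to 4.06, below all ESC and iPSC clones other than iPSC-32 and, for NT-7, iPSC-34. The part of endoderm cells in the keratin values was not tested.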

How the data were processed

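RNA was hybridised to Affymetrix arrays, 1 per line, after labelling of total RNA as biotinylated cRNA, per the labels' protocols. The deposited values of 22626 probe sets are on a log2 scale (-4.83 to 6.97, array medians -0.35 to -0.05). Their base of 2 and their centring near 0 were read off the values, and the sources used here do not give the background correction, the summarisation, scan dates or batches. Of the probe sets 18003 named 1 gene, 287 several and 4336 none, through gene identifiers joined to GRCm38.p6 symbols. The brightest of a gene's probe sets stood for it. Every value was used, with no detection filter, and the number of arrays limits the precision.

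Each comparison was fitted on all 11807 genes with lmFit and eBayes of limma (version 3.58.1, R 4.3.3; two-sided, Benjamini-Hochberg over those genes, threshold 0.05). All adjusted p of single genes are limma's, and correlations used 100000 permutations (exact in chimera 1). The fits were tested on simulated data: of 100 genes changed by 0.5 on the log2 scale, 87.0% were recovered for iPSC against ESC, 48.0% for MEF-derived iPSC against ESC and 50.0% for NT-ESC against ESC. Simulated clones varied only as clones within a group do, with no differences between origins, animals or donor lines. These shares can therefore overstate recovery where such differences exist, as among the pooled iPSC. The members, gene lists and tests were chosen with earlier results of these data known. Named besides the members are the 5 genes most like Krt8, Gata2 and Tfap2c, up to 3 genes per list with the smallest p, and Pou5f1, Sox2 and Nanog. Genes named for the NT-ESC and the neighbours of Krt8 were chosen after their values were seen. Alternatives were quantile normalization, a filter at the 40th percentile, other probe sets, other variance settings, blocks, covariates and left-out clones. For the coupling of pairs over the 48 clones, the fibroblast and feeder mean was also taken out by regression.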

Additional observations from a re-analysis of the deposited data

Results flagged for a closer look

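Among 70 checks of a member in a group of 4 to 10 lines, 5 lines lay far from the rest of their group, and chance flags about 1 group in 20. Krt18 was 3.29 in ESC-4, against 4.52 to 4.66 in the other ESC. Cdx2 was -0.27 in ESC-1, against -1.53 to -1.46. Krt8 was 1.76 in iPSC-10, an HSC-derived clone of mouse 1, against 2.13 to 2.20 in its group. Gata3 was -1.88 in iPSC-46, against -3.18 to -2.72 in the other TTF-derived clones. Elf5 was -3.02 in iPSC-7, against -3.28 to -3.26 in the other HSC-derived clones of mouse 1, a small gap in a low value.

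The difference of Krt7 between blood-derived and fibroblast-derived clones differed between animals (limma adjusted p = 0.00559 for the interaction). After nuclear transfer, 3 members moved one way in all 3 subclones of Adeno-2 and the other way in NT-7, NT-8 and NT-9, a difference that was not tested. The share of all genes that did so was not counted, and each side rests on few donor arrays. Tfap2c differed from the donor by 0.46 on average in the first and by -0.36 in the second, Tead4 by -0.41 and 1.48, and Gata3 by -0.29 and 0.71. The second probe set of Tead4 followed the one used only at r = 0.23 over the arrays.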

How the results depend on the processing

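Of the values recomputed, 586 under a first set of settings and 40 under settings added after seeing values kept their direction and side of the threshold. Of the first kind 25 lost and 23 gained a call and 2 reversed, and of the second 7 lost and 1 gained one. Members called in iPSC against ESC numbered 0 with the animal as a random block, a fit that called 0.0% of all genes, and 0 to 3 when single arrays were left out. For blood-derived against fibroblast-derived clones 1 was called with the fibroblast and feeder mean as a covariate, where Krt7 turned to -0.012, and 5 to 8 without single clones. For any difference between cell types 3 were called when clones of a cell type and animal were averaged first (17.4% of all genes), and 3 with the filter on low values (51.3%), under which only 6 members were tested. The difference by animal gave 5 without iPSC-32 and 0 to 5 without single clones. For NT-ESC against donors 2 were called with NT-7, NT-8 and NT-9 and their donors left out, which sets 3 subclones against the 1 Adeno-2 array and where Tfap2c turned to 0.46, and 0 to 6 without single lines. Coupled pairs numbered 3 with quantile normalization, 13 without centring and 2 without the 9 wide-spread clones, an alternative chosen after seeing the data, as was the coupling without iPSC-32. The cause of these changes was not tested. No paired analysis was possible because replicate numbers only name clones. The donor line, a fixed block of the NT-ESC fit, and the animal were used as blocks instead. Low signals such as those of Gata3 and Elf5 have no detection call behind them.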

Other observations

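Without the MEF-derived clones and the PF-derived clones of mouse 2, 2 of 45 pairs of members passed in the remaining 39 clones: Krt8 with Krt18, and Tfap2c with Elf5, which went in opposite directions (r = -0.55, adjusted p = 0.034, permutation test). Over all 48 clones Tfap2c with Elf5 gave r = -0.35 and rho = -0.45 (adjusted p = 0.0583 and 0.0514). Elf5 spread with an SD of 0.17 in the 39 clones, around a low value. The other probe sets of the members did not always follow the brightest: over the arrays they correlated at 1.00 for Krt8, 0.79 for Tfap2c, 0.67 for Gata2, 0.42 for Elf5, 0.23 for Tead4 and 0.17 for Cdx2.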
